A study of Mus musculus with 6 samples.

Results

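The genes described here are the cytochrome P450 family 2 (Cyp2) genes of the mouse, taken as every protein-coding gene of the GENCODE M21 annotation whose name starts with Cyp2 followed by a letter. This rule gave 49 genes of the 55450 in the count tables, of which 21951 are protein coding. Bulk RNA-Seq was performed on primary hepatocytes, with 3 libraries from undamaged liver (0 h) and 3 libraries from liver collected 48 h after partial hepatectomy (PHx), an operation that cuts away the larger part of the organ. All mice were C57BL/6 animals in the sample labels and C57BL/6J in the study's methods, male and on normal chow, and hepatocytes were released by collagenase perfusion. The labels give their age as 10 to 12 weeks, while the study's methods give a slightly younger age at surgery. Both groups carry the PHx tag in the labels, and the 0 h libraries stand for liver without damage rather than for sham-operated animals. The question was how the transcripts of the Cyp2 enzymes differ between resting hepatocytes and hepatocytes at the height of the proliferative response.

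Cyp2 enzymes are heme proteins of the endoplasmic reticulum that oxidize drugs, toxicants, steroids and fatty acids. They take their electrons from NADPH through cytochrome P450 oxidoreductase, which is encoded by the single gene Por, with cytochrome b5 as an auxiliary donor. In rodents the family has expanded into tandem clusters of closely related genes, many of which are expressed mainly by hepatocytes around the central vein, and some of which are expressed at very different levels in male and female liver.

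Each library held 31419443 to 36346220 gene counts at 0 h and 31684152 to 33093006 at 48 h. The libraries carried the defining transcripts of hepatocytes, with 8 markers such as Alb and Apob at a summed 89266 to 108485 counts relative to the library total scaled to 1e6 (CPM) at 0 h and 69109 to 78023 CPM at 48 h. Of these 8 genes, 3 were lower and 1 was higher at 48 h in the test described below. Over all genes of that test, 19.3% were lower and 21.4% were higher. Other cell types were present at low levels. The 7 endothelial markers summed to 172.7 to 284.2 CPM at 0 h and 133.8 to 156.8 CPM at 48 h, and all 7 were lower. The 7 Kupffer cell markers summed to 48.5 to 74.1 CPM at 0 h and 82.8 to 113.8 CPM at 48 h, with 2 genes higher. The 6 stellate cell markers summed to 57.4 to 94.2 CPM and 50.2 to 67.9 CPM, with 1 higher and 1 lower. Among the 6 cholangiocyte markers Krt19, Krt7, Epcam and Cftr had at most 4 counts in any library, while the list summed to 8.69 to 19.3 CPM and 17.9 to 28.7 CPM and 1 gene was higher. The 6 neutrophil markers summed to at most 0.382 CPM at 0 h and 1.17 CPM at 48 h, and Mpo had 0 counts in every library. The part that these markers play in the Cyp2 values was not tested. In bulk libraries, fewer cells of a type and less RNA per cell cannot be told apart.

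Cyp2 transcripts as a group were lower at 48 h after PHx. Their sum was 18155.5, 20371 and 19706 CPM of the library total in the 3 libraries at 0 h. At 48 h it was 6970.0, 9740.3 and 10068 CPM. The highest library at 48 h thus lay well below the lowest at 0 h. On average the 49 genes took 1.94% of all gene counts in undamaged liver (19411 ± 1137 CPM, SD, n = 3) and 0.893% at 48 h (8926 ± 1702 CPM, SD, n = 3), or 46.0% of the level at 0 h. Cyp2e1 alone made up a large share of this sum, and without it the other 48 genes went from 13279 ± 667 CPM to 6761 ± 1223 CPM (SD, n = 3). Scaled by gene length (TPM, the length-corrected counterpart of CPM), the sum went from 23917 ± 1444 to 11309 ± 2079 TPM (SD, n = 3).

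**Figure D1:**
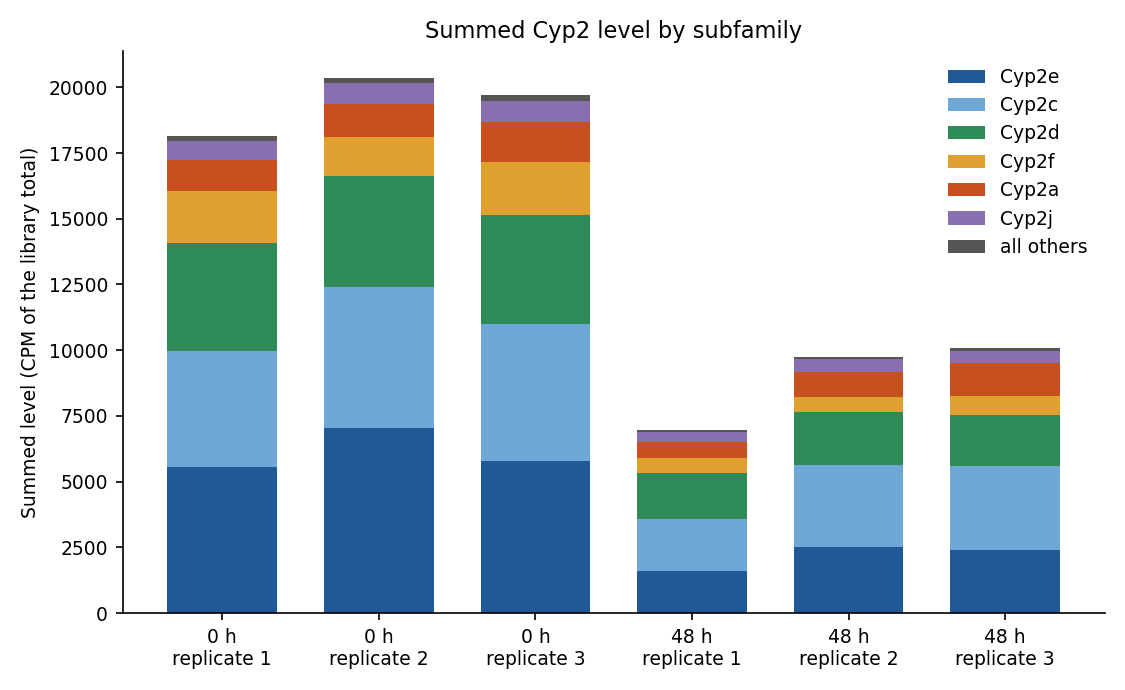
Summed Cyp2 level in each library, in CPM of the library total on a linear axis from 0, stacked by subfamily. The 3 bars at 0 h reach 18155.5 to 20371 CPM and the 3 bars at 48 h reach 6970.0 to 10068 CPM, and the Cyp2e, Cyp2c, Cyp2d, Cyp2f and Cyp2j segments are all shorter at 48 h.

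For single genes, counts were scaled by edgeR with TMM factors (normalized CPM), and the time points were compared with its quasi-likelihood test over the 17037 genes that had at least 10 counts in at least 3 libraries. A gene was called higher or lower at a Benjamini-Hochberg adjusted p under 0.05. Of the 49 Cyp2 genes, 34 passed the count filter, and 22 of these were lower at 48 h, 3 were higher and 9 were not called. Among all genes tested, 19.3% were lower and 21.4% were higher. The median log2 fold change (48 h over 0 h) was -0.96 over the 34 Cyp2 genes and -0.0033 over all genes tested. All 3 libraries at 48 h lay below all 3 at 0 h for 23 of the 34 genes, against 25.0% of all genes, and above them for 2, against 27.8% of all genes. With a log2 fold change of at least 1 in size required as well, 15 Cyp2 genes were lower and 2 were higher, where 7.94% and 9.69% of all genes were. Of the 18 members with a mean over both time points of at least 100 normalized CPM, 16 were lower and 0 were higher, with a median log2 fold change of -1.36. The 2 that were not called are Cyp2a5 and Cyp2c67. Since this mean uses the values compared, Cyp2u1 and Cyp2c68 are among the 18 through their level at 0 h. Of the 9 tested members with a mean under 10 normalized CPM, 2 were lower and 3 were higher, and the difference between abundant and rare members was not tested. The number of lower genes was 22 to 24 when any 1 library was left out. The number of higher genes dropped to 1 without replicate 1 at 0 h, replicate 2 at 48 h or replicate 3 at 48 h. Replicate 1 at 48 h had the lowest value of the 48 h libraries for 23 of the 34 genes, and without it 22 genes were lower and 3 were higher.

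**Figure D2:**
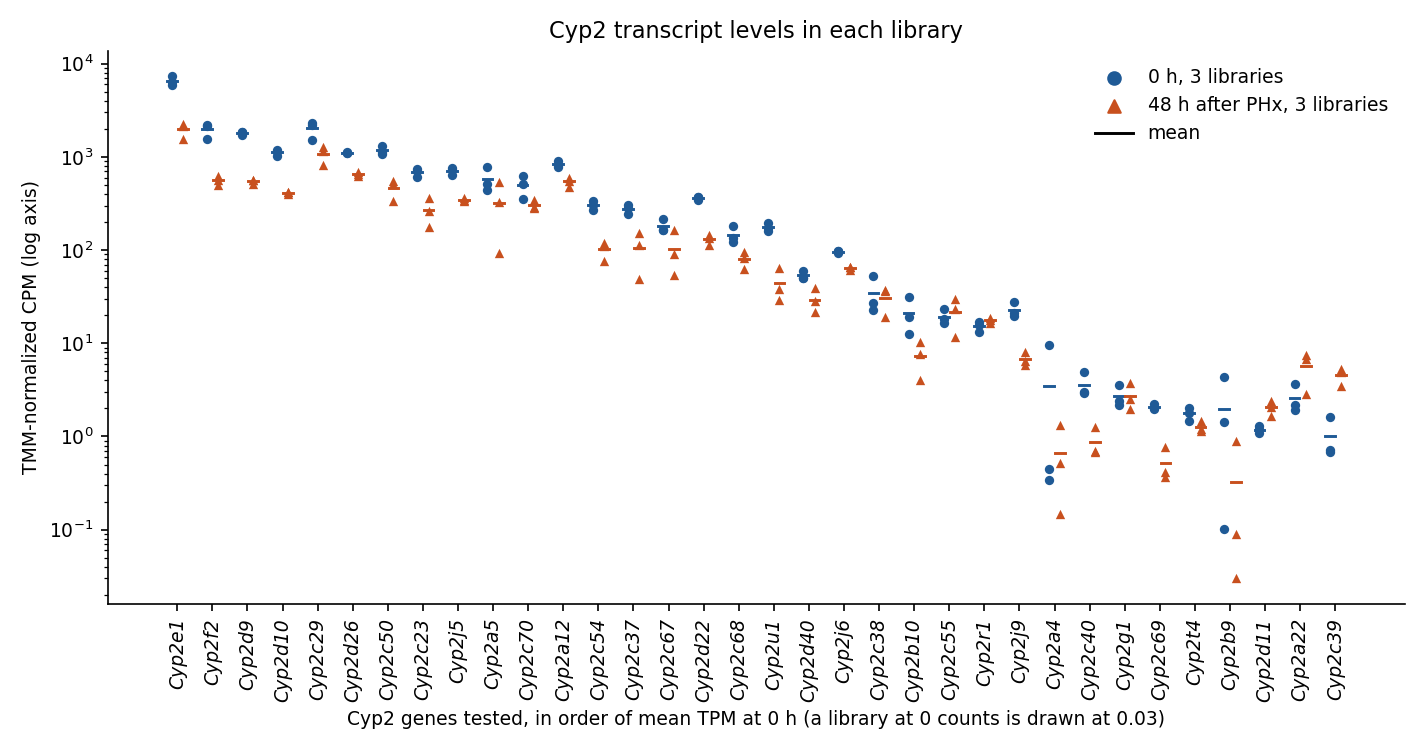
Normalized CPM (log axis) of the 34 tested Cyp2 genes in each of the 3 libraries at 0 h (circles) and at 48 h after PHx (triangles), with group means as bars, in order of mean TPM at 0 h. The triangles lie below the circles without overlap for 23 genes and above them for Cyp2d11 and Cyp2c39, both near the low end.

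The perivenous Cyp2 genes include the most abundant member of the family at both time points. Cyp2e1 (ENSMUSG00000025479.9, chr7:140763739-140774987, GRCm38), which oxidizes ethanol and acetaminophen, was measured at 5956, 7408 and 6338 normalized CPM at 0 h and 1571, 2280.5 and 2169 at 48 h. Every library at 48 h was far below every library at 0 h. Its transcript fell 3.27-fold (log2 fold change -1.71, standard error 0.192, edgeR adjusted p = 6.85e-05). Per length, Cyp2e1 ranked first among the 49 genes at both times, with a level of 7921 ± 1076 TPM at 0 h and 2904 ± 639 TPM at 48 h (SD, n = 3). Cyp2c29 (ENSMUSG00000003053.17, chr19:39269405-39330713), an arachidonic acid epoxygenase that the constitutive androstane receptor (CAR) induces, had 1532, 2209 and 2317 normalized CPM at 0 h and 815, 1285 and 1153 at 48 h. The groups did not overlap, although replicate 1 was the lowest library of both groups. This gene fell 1.86-fold (log2 fold change -0.90, standard error 0.213, edgeR adjusted p = 0.00703).

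The neighbouring genes Cyp2c37, Cyp2c54 and Cyp2c50, which also encode arachidonic acid oxygenases, fell together. Cyp2c50 (ENSMUSG00000054827.12, chr19:40089688-40113950) had 1083, 1141 and 1313 normalized CPM at 0 h and 333, 545 and 508 at 48 h. All of its libraries at 48 h were below those at 0 h (log2 fold change -1.35, standard error 0.192, edgeR adjusted p = 0.000325). Cyp2c54 (ENSMUSG00000067225.2, chr19:40037940-40073827) had 269, 302 and 336 normalized CPM at 0 h and 75.5, 120.5 and 110.0 at 48 h. These groups were also well separated, and the gene fell 2.96-fold (log2 fold change -1.57, standard error 0.177, edgeR adjusted p = 7.32e-05). Cyp2c37 (ENSMUSG00000042248.4, chr19:39992424-40012243) had 243, 286 and 303 normalized CPM at 0 h and 48.9, 112 and 153 at 48 h. Its 48 h libraries spread over a 3.13-fold range but stayed below those at 0 h (log2 fold change -1.41, standard error 0.319, edgeR adjusted p = 0.00544). The transcripts of these 3 genes share 18.3% to 30.1% of their 50-base words with other genes, so reads could have been split between them. Summed before the test, an alternative chosen after seeing the data, the 3 genes had a log2 fold change of -1.40 (edgeR adjusted p = 0.00045).

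Cyp2a5 (ENSMUSG00000005547.14, chr7:26835305-26843548), a coumarin hydroxylase and the last gene of the perivenous list, had the widest spread among the 18 abundant members, with coefficients of variation of 31.4% at 0 h and 69.9% at 48 h in normalized CPM. It had 444, 513 and 788 normalized CPM at 0 h and 92.3, 328 and 539 at 48 h. Replicate 3 at 48 h was as high as the middle library at 0 h, while replicate 1 at 48 h was far below all others. Cyp2a5 did not pass the test (log2 fold change -0.86, standard error 0.477, edgeR adjusted p = 0.176), but it was called lower without replicate 3 at 48 h (log2 fold change -1.48, edgeR adjusted p = 0.0258) and without a count filter (edgeR adjusted p = 0.00283). Of the 6 perivenous genes, 5 were lower at 48 h, against 19.3% of all genes tested, with a median log2 fold change of -1.38, and their sum went from 10193 ± 1194 to 4408 ± 1230 CPM of the library total (SD, n = 3).

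Cyp2f2 (ENSMUSG00000052974.8, chr7:27119909-27133660), which activates naphthalene and is the periportal member of the family, fell as well. It had 2149, 1566 and 2195 normalized CPM at 0 h and 565, 500.2 and 625 at 48 h. The lowest library at 0 h was still more than double the highest at 48 h. The decrease was 3.50-fold (log2 fold change -1.81, standard error 0.175, edgeR adjusted p = 2.49e-05). Cyp2f2 had rank 2 in TPM at 0 h and rank 4 at 48 h, with levels of 2522 ± 397 and 866 ± 116 TPM (SD, n = 3). An antisense gene covers 13.5% of its exon bases, and whether counting used strand is not given in the sources used here. Whether Cyp2f2 fell by more than the perivenous genes was not tested.

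**Figure D3:**
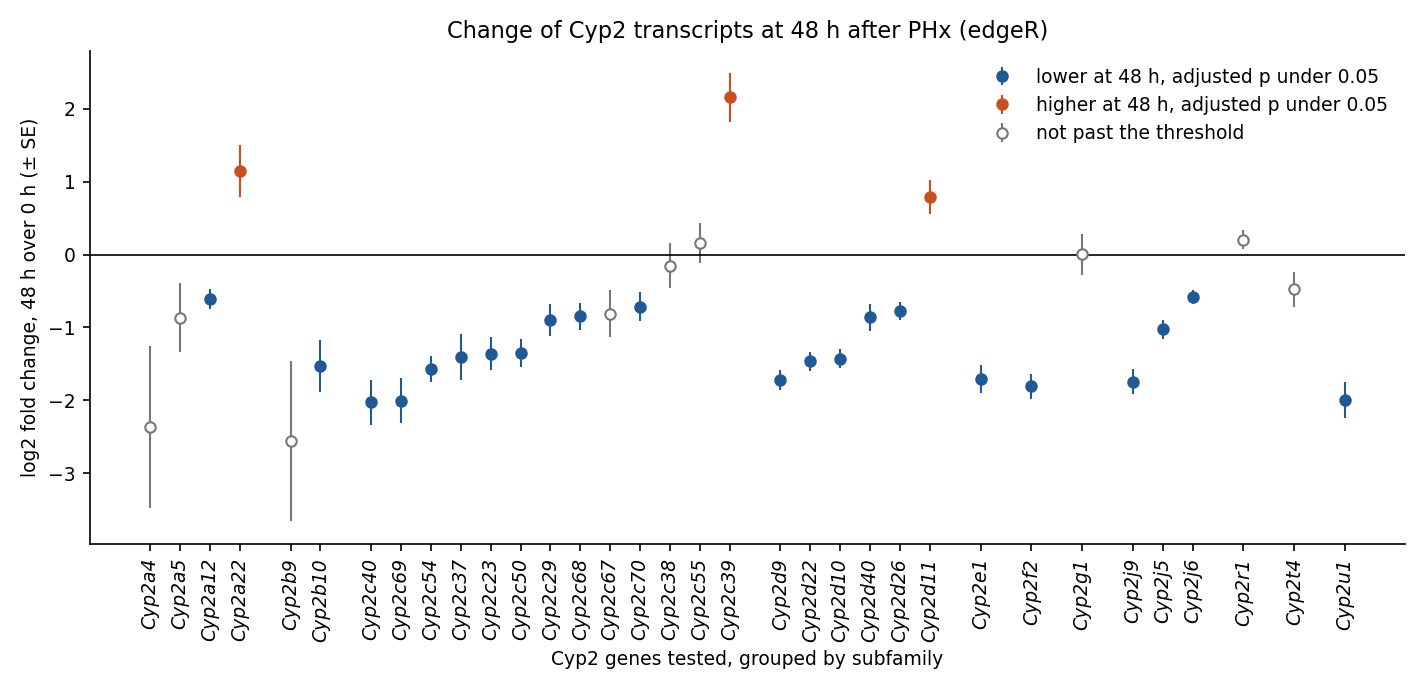
Log2 fold change (48 h over 0 h) with its standard error from edgeR for the 34 tested Cyp2 genes, grouped by subfamily. Filled blue points mark the 22 genes that were lower, filled orange points the 3 that were higher (Cyp2a22, Cyp2c39 and Cyp2d11), and open points the 9 that were not called.

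The Cyp2d genes as a sum were lower at 48 h, with little spread between libraries. The 8 genes had 4100.3, 4222 and 4137 CPM of the library total at 0 h and 1755, 2017 and 1960.4 CPM at 48 h. The groups were far apart and the spread within each was small, and the sum at 48 h was 46.0% of that at 0 h. Of the 6 tested, 5 were lower and 1, Cyp2d11, was higher, where 19.3% and 21.4% of all genes were. Cyp2d9 (ENSMUSG00000068086.6, chr15:82433437-82456845), a testosterone hydroxylase with male-biased expression in liver, had 1854, 1710.1 and 1859 normalized CPM at 0 h and 514, 571 and 566 at 48 h. There was a wide gap between the groups, and Cyp2d9 fell 3.29-fold (log2 fold change -1.72, standard error 0.136, edgeR adjusted p = 5.86e-06). Cyp2d10 (ENSMUSG00000094806.2, chr15:82402846-82407195) had 1034, 1194 and 1119 normalized CPM at 0 h and 424, 421 and 396 at 48 h. Its libraries at 48 h were all below those at 0 h (log2 fold change -1.43, standard error 0.131, edgeR adjusted p = 1.68e-05). Cyp2d26 (ENSMUSG00000022445.7, chr15:82790101-82794294) had 1103, 1109.8 and 1126 normalized CPM at 0 h and 618, 682 and 658 at 48 h. It was the steadiest member in undamaged liver, with a coefficient of variation of 1.09% in normalized CPM, and its decrease was smaller (log2 fold change -0.77, standard error 0.126, edgeR adjusted p = 0.000808). By mean TPM, Cyp2d26 had rank 6 at 0 h and rank 2 at 48 h, and Cyp2d9 had rank 3 and rank 6. At 0 h the TPM levels of Cyp2d9, Cyp2d10, Cyp2c29 and Cyp2d26 lay within 1 SD of Cyp2c29 (1713 ± 355 TPM, SD, n = 3). At 48 h the level of Cyp2d26 (1134 ± 93.0 TPM) lay within 1 SD of that of Cyp2c29 (1106 ± 277 TPM, SD, n = 3). The place of Cyp2c29 in the order is thus not resolved at either time, nor is the order of Cyp2d9 and Cyp2d10 at 0 h. The 2 other lower genes were Cyp2d22 (log2 fold change -1.47) and Cyp2d40 (-0.86 on the same scale). Cyp2d40 varied more at 48 h, with 21.5, 28.1 and 38.8 normalized CPM. Other genes in the same orientation cover 9.26% of the exon sequence of Cyp2d9 and 3.64% of that of Cyp2d10.

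Outside the perivenous list, the Cyp2c subfamily held a pair of abundant genes that share no 50-base word with any other gene. Cyp2c23 (ENSMUSG00000025197.9, chr19:44005022-44029208), an arachidonic acid epoxygenase, had 610.3, 751 and 698 normalized CPM at 0 h and 179, 264 and 359.9 at 48 h. No library at 48 h reached the level at 0 h, and the gene fell 2.56-fold (log2 fold change -1.36, standard error 0.224, edgeR adjusted p = 0.000837). Cyp2c70 (ENSMUSG00000060613.10, chr19:40153353-40187333), which makes the muricholic acids of mouse bile, had 631, 517 and 357 normalized CPM at 0 h and 345, 281 and 292 at 48 h. Replicate 3 at 0 h was only slightly above the highest library at 48 h. Cyp2c70 fell 1.64-fold (log2 fold change -0.71, standard error 0.196, edgeR adjusted p = 0.0146). Without replicate 1 at 0 h (edgeR adjusted p = 0.0632) or replicate 2 at 48 h (edgeR adjusted p = 0.0544), and with library size only (edgeR adjusted p = 0.0517), this call was lost.

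Cyp2c67, Cyp2c68, Cyp2c40 and Cyp2c69 stand next to each other on chromosome 19 and have closely related transcripts, of which 43.3% to 60.3% of the 50-base words occur in another gene. Their upstream sequences are shown because they differ little while the transcript levels differ widely. At 0 h the levels were 273 ± 54.1 TPM for Cyp2c67, 219 ± 51.1 for Cyp2c68, 4.62 ± 1.52 for Cyp2c40 and 3.18 ± 0.244 for Cyp2c69 (SD, n = 3). Capitals mark CAAAGTCCA, a string preferred by the liver nuclear receptor HNF4A, and the 120-base windows (RefSeq, GRCm38.p6, 5′ to 3′ along the gene) are aligned on it.
Cyp2c67 (chr19:39649128-39649247, minus strand): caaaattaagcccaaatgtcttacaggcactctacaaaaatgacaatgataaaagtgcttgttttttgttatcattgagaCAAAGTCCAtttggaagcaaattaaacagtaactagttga
Cyp2c68 (chr19:39741139-39741258, minus strand): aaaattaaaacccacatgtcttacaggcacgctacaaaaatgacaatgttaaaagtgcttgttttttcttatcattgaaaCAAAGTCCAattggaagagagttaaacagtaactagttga
Cyp2c40 (chr19:39812820-39812939, minus strand): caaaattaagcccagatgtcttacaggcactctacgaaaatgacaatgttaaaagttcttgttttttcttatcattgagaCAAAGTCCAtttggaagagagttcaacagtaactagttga
Cyp2c69 (chr19:39886805-39886924, minus strand): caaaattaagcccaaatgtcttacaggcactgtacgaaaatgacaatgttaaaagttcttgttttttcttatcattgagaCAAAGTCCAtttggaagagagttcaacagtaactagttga
Against the Cyp2c67 window, Cyp2c68 differs at 13 of 120 positions and Cyp2c40 and Cyp2c69 at 9 each. The string starts 125, 77, 45 and 75 bases before the RefSeq start of the gene in Cyp2c67, Cyp2c68, Cyp2c40 and Cyp2c69. Over the aligned part of the 250 upstream bases, Cyp2c40 and Cyp2c69 are identical at 217 of 220 bases (98.6%). Cyp2c68 is identical to Cyp2c40 at 95.4%, to Cyp2c69 at 94.3% and to Cyp2c67 at 93.0%, and Cyp2c67 is identical to Cyp2c40 at 92.9% and to Cyp2c69 at 93.0%.

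The rare pair of this group had, by point estimate, the largest decreases among the Cyp2 genes that passed the test. Cyp2c40 (ENSMUSG00000025004.15, chr19:39767071-39812814), a female-biased arachidonic acid hydroxylase, had 2.93, 4.87 and 3.01 normalized CPM at 0 h and 0.683, 0.699 and 1.26 at 48 h. All libraries at 48 h were below those at 0 h, and the gene fell 4.08-fold (log2 fold change -2.03, standard error 0.313, edgeR adjusted p = 0.000543). Cyp2c69 (ENSMUSG00000092008.2, chr19:39842814-39886799), also female-biased, had 2.25, 2.03 and 1.99 normalized CPM at 0 h and 0.416, 0.364 and 0.771 at 48 h. The separation was again complete, with a 4.01-fold decrease (log2 fold change -2.0, standard error 0.306, edgeR adjusted p = 0.000507). The counts behind these values are low, with 66 or fewer per library for Cyp2c69 and 151 or fewer for Cyp2c40. Cyp2c68 had 121, 179 and 134 normalized CPM at 0 h and 63.0, 95.96 and 82.6 at 48 h, and it fell as well (log2 fold change -0.85, standard error 0.182, edgeR adjusted p = 0.00411). Cyp2c67 had 164, 217 and 163 normalized CPM at 0 h and 53.6, 91.5 and 165 at 48 h. Replicate 3 at 48 h lay inside the range at 0 h, and the gene was not called (log2 fold change -0.81, standard error 0.320, edgeR adjusted p = 0.0659). It was called lower without that library (log2 fold change -1.33, edgeR adjusted p = 0.00148), without a count filter (edgeR adjusted p = 0.000219) and in limma-voom (adjusted p = 0.0399). Summed before the test, an alternative chosen after seeing the data, the 4 genes had a log2 fold change of -0.84 (edgeR adjusted p = 0.0182).

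The Cyp2a genes come in pairs of near copies with very different levels, and their upstream windows are shown for the same reason. Capitals mark TATAAA, the core of the TATA box, on which each pair is aligned (RefSeq, GRCm38.p6, 5′ to 3′ along the gene).
Cyp2a5 (chr7:26835206-26835325, plus strand): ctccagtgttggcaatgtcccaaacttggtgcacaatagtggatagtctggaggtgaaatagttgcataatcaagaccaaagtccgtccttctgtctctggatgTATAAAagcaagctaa
Cyp2a4 (chr7:26307060-26307179, plus strand): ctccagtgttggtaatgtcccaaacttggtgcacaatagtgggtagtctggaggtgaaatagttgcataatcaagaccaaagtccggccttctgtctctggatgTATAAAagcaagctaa
Cyp2a12 (chr7:27028947-27029066, plus strand): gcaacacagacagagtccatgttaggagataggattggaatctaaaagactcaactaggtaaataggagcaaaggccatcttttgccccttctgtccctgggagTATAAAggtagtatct
Cyp2a22 (chr7:26939399-26939518, minus strand): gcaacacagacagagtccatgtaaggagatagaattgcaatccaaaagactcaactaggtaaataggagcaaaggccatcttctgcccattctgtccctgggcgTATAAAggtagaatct
The Cyp2a4 and Cyp2a5 windows differ at 3 of 120 positions, and over the 250 upstream bases they are identical at 245 of 249 aligned bases (98.4%). The Cyp2a12 and Cyp2a22 windows differ at 8 positions, and over the upstream sequence 215 of 239 aligned bases are identical. At 0 h the level of Cyp2a5 was 726 ± 209.6 TPM and that of Cyp2a4, a testosterone hydroxylase with female-biased expression, 5.32 ± 8.20 TPM (SD, n = 3). Cyp2a12 and Cyp2a22 had levels of 626 ± 31.5 and 1.93 ± 0.637 TPM at 0 h (SD, n = 3).

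Cyp2a12 fell while its rare copy Cyp2a22 rose, and neither Cyp2a5 nor Cyp2a4 was called. Cyp2a12 (ENSMUSG00000060407.6, chr7:27029081-27037375) had 811, 784 and 906 normalized CPM at 0 h and 478, 557 and 600.5 at 48 h. No library overlapped, and the gene fell 1.53-fold (log2 fold change -0.61, standard error 0.140, edgeR adjusted p = 0.00575), but the call was lost with library size only (edgeR adjusted p = 0.0508). Cyp2a22 (ENSMUSG00000091867.2, chr7:26931631-26939384) had 1.91, 2.19 and 3.61 normalized CPM at 0 h and 2.85, 7.47 and 6.77 at 48 h. Replicate 1 at 48 h lay inside the range at 0 h, and the gene rose 2.21-fold by the fit (log2 fold change 1.14, standard error 0.356, edgeR adjusted p = 0.0261). Its call was lost without replicate 1 or 2 at 0 h or replicate 2 or 3 at 48 h (edgeR adjusted p from 0.0735 to 0.107), and in limma-voom (adjusted p = 0.0501). Cyp2a22 shares 20.2% of its 50-base words with Cyp2a12, and the difference between the copies was not tested. Cyp2a4 (ENSMUSG00000074254.4, chr7:26307169-26315088) had 10, 299 and 15 counts at 0 h and 5, 48 and 18 at 48 h, so replicate 2 at 0 h stood far above the 5 other libraries. The gene was not called (log2 fold change -2.36, standard error 1.11, edgeR adjusted p = 0.116), and without that library its log2 fold change was 0.75 (edgeR adjusted p = 0.462). Without a count filter it was called lower (log2 fold change -2.37, edgeR adjusted p = 0.000207). Cyp2a4 shares 36.1% of its 50-base words with Cyp2a5.

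Cyp2b10 (ENSMUSG00000030483.14, chr7:25897620-25926624), the classical target of CAR and of phenobarbital, was low in undamaged liver and lower at 48 h. It had 12.6, 19.3 and 31.7 normalized CPM at 0 h and 10.4, 7.63 and 4.08 at 48 h. The groups did not overlap, although each spread over a range of more than 2.5-fold, and the gene fell 2.88-fold (log2 fold change -1.53, standard error 0.358, edgeR adjusted p = 0.00648). Of the 4 genes listed as inducible through CAR, Cyp2b10, Cyp2c29 and Cyp2c37 were lower, where 19.3% of all genes were. The remaining gene, Cyp2c55, had 16.7, 18.3 and 23.1 normalized CPM at 0 h and 11.8, 30.04 and 23.4 at 48 h. Its libraries overlapped, and it was not called (log2 fold change 0.16, standard error 0.274, edgeR adjusted p = 0.663). Cyp2b9, a female-biased gene, had 3, 136 and 47 counts at 0 h and 3, 32 and 0 at 48 h. As with Cyp2a4, replicate 2 was the highest library at 0 h, and Cyp2b9 was not called (log2 fold change -2.56, standard error 1.10, edgeR adjusted p = 0.089). It passed the threshold without a count filter (edgeR adjusted p = 0.000132), without replicate 1 at 0 h (log2 fold change -3.11, edgeR adjusted p = 0.0256) and without replicate 2 at 48 h (log2 fold change -5.40, edgeR adjusted p = 0.0235). Without replicate 2 at 0 h, its highest library, the log2 fold change was -1.22 (edgeR adjusted p = 0.446). Of the 6 female-biased genes, Cyp2c40 and Cyp2c69 were lower, Cyp2a22 was higher, Cyp2a4 and Cyp2b9 were not called, and Cyp2b13 had at most 1 count per library. Over all genes tested, 19.3% were lower and 21.4% were higher. The 5 tested genes of this list are too few to set against these shares. The male-biased Cyp2d9 was lower.

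The Cyp2j genes, which encode fatty acid epoxygenases, were either lower or hardly detected. Cyp2j5 (ENSMUSG00000052520.7, chr4:96628773-96664154) had 634, 733 and 761 normalized CPM at 0 h and 333, 365 and 346 at 48 h. The libraries of each group were close together and the groups far apart, with a 2.04-fold decrease (log2 fold change -1.03, standard error 0.130, edgeR adjusted p = 0.000156). Cyp2j9 (ENSMUSG00000015224.10, chr4:96568429-96591578) had 21.3, 27.5 and 19.5 normalized CPM at 0 h and 6.50, 5.79 and 8.08 at 48 h. It fell further than its neighbours Cyp2j5 and Cyp2j6 by point estimate, a difference that was not tested (log2 fold change -1.75, standard error 0.172, edgeR adjusted p = 2.81e-05). Cyp2j6 had a log2 fold change of -0.58 and was the smallest decrease that passed the test in the family. At most 0.422% of the 50-base words of these 3 transcripts occur in another gene.

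Among the genes that stand alone, Cyp2u1 (ENSMUSG00000027983.13, chr3:131288441-131303227), a hydroxylase of long-chain fatty acids, had 194, 162 and 174 normalized CPM at 0 h and 29.3, 38.3 and 64.9 at 48 h. There was no overlap, and it fell 4.0-fold (log2 fold change -2.0, standard error 0.246, edgeR adjusted p = 0.000128). An antisense gene covers 10.5% of its exon sequence. Cyp2r1 (ENSMUSG00000030670.16, chr7:114549682-114562972), the vitamin D hydroxylase of the liver, had 13.2, 15.8 and 16.9 normalized CPM at 0 h and 18.6, 18.0 and 16.5 at 48 h. The libraries of the time points overlapped, and Cyp2r1 was not called (log2 fold change 0.21, standard error 0.126, edgeR adjusted p = 0.222), but with library size only its log2 fold change was 0.41 (edgeR adjusted p = 0.0213). Cyp2g1, known from the olfactory mucosa, had 2.42, 2.19 and 3.58 normalized CPM at 0 h and 1.96, 3.72 and 2.54 at 48 h, and it was not called (log2 fold change 0.004, standard error 0.281, edgeR adjusted p = 0.992). Cyp2t4 was below 0 h in all 3 libraries at 48 h without passing the test (log2 fold change -0.48, standard error 0.236, edgeR adjusted p = 0.132). Cyp2c38 had a log2 fold change of -0.15 with overlapping libraries and was not called either (edgeR adjusted p = 0.725).

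Of the 3 genes that were higher, Cyp2c39 showed the clearest increase. Cyp2c39 (ENSMUSG00000025003.6, chr19:39510862-39568529), which has been described as a retinoic acid hydroxylase, had 0.715, 0.677 and 1.63 normalized CPM at 0 h and 3.44, 4.87 and 5.28 at 48 h. The lowest library at 48 h was more than double the highest at 0 h, and the gene rose 4.46-fold (log2 fold change 2.16, standard error 0.333, edgeR adjusted p = 0.000548). It was the one increase that was called in all 15 fits, with adjusted p of at most 0.00349. Its level at 48 h remained small beside that of the abundant genes, at 7.80 ± 1.94 TPM (SD, n = 3), rank 25 of the 49 genes. Cyp2d11 (ENSMUSG00000068085.6, chr15:82389154-82394022) had 1.19, 1.29 and 1.08 normalized CPM at 0 h and 1.66, 2.40 and 2.08 at 48 h. The groups were separated by a narrow margin, and the gene rose 1.73-fold (log2 fold change 0.79, standard error 0.237, edgeR adjusted p = 0.0222). This call was lost without replicate 1 or 3 at 0 h or replicate 2 or 3 at 48 h (edgeR adjusted p from 0.0536 to 0.106).

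Cyp2d11 and its abundant neighbour Cyp2d10 thus differed in direction, and their upstream windows are shown aligned on TTTATA, which is TATAAA read on the other strand and is given in capitals (RefSeq, GRCm38.p6, 5′ to 3′ along the gene).
Cyp2d10 (chr15:82407210-82407329, minus strand): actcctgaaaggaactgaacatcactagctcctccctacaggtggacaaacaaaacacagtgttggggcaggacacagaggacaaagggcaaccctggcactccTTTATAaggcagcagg
Cyp2d11 (chr15:82394050-82394169, minus strand): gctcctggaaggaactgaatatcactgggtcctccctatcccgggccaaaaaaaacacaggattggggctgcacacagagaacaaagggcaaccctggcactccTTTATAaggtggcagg
These windows differ at 19 of 120 positions, and 85.5% of the aligned upstream bases are identical. Cyp2d11 shares 26.9% of its 50-base words with Cyp2d10, whose level at 0 h was 1760.5 ± 154 TPM against 1.95 ± 0.220 TPM for Cyp2d11 (SD, n = 3). The part of shared reads in the values of Cyp2d11 and the difference between the pair were not tested. Summed before the test, an alternative chosen after seeing the data, the pair had a log2 fold change of -1.42 (edgeR adjusted p = 1.7e-05).

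The 15 members that did not pass the count filter were at or near 0 counts. Cyp2b23, Cyp2j7, Cyp2j11 and Cyp2j12 had 0 counts in all 6 libraries, where 3 counts correspond to 0.0825 to 0.0955 CPM of the library total. The other 11 had at most 20 counts in any library, in Cyp2j8. Cyp2j8 had 20, 12 and 9 counts at 0 h and 3, 3 and 0 at 48 h, so its libraries did not overlap. The others are Cyp2s1, Cyp2w1, Cyp2c65, Cyp2c66 and Cyp2j13, which are known mainly from organs other than liver, and Cyp2b13, Cyp2b19, Cyp2d12, Cyp2d34 and Cyp2ab1. Without a count filter, 11 of the 15 received an adjusted p. Cyp2j8 was called lower there (log2 fold change -2.88, edgeR adjusted p = 0.00042), where 11.5% of 31260 genes were lower, and the 10 others were not called. The floor covers counting error only, since reads carry no molecular identifiers.

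Most members lie in 4 tandem clusters, and each cluster holds abundant genes beside genes at or near 0 counts. The Cyp2j cluster (chr4:96027534-96664154, GRCm38) holds 8 genes, of which the last 3 along the chromosome were tested and all 3 were lower. The cluster of Cyp2a, Cyp2b, Cyp2f, Cyp2g, Cyp2s and Cyp2t genes (chr7:25802475-27158668) holds 13, of which 9 were tested, with 3 lower and 1 higher. In the Cyp2d cluster (chr15:82370527-82794294) 6 of 8 genes were tested, with 5 lower and 1 higher. The Cyp2c genes (chr19:39007019-44029208) number 15, of which Cyp2c23 stands apart from the rest, and of the 13 tested 9 were lower and 1 was higher. Over all genes tested, 19.3% were lower and 21.4% were higher. The chromosome 7 cluster came closest to the share of lower genes, and no cluster was tested against these shares. In CPM of the library total, the summed level at 48 h was 58.2% of that at 0 h for the Cyp2j cluster and 49.0% for the chromosome 7 cluster. It was 46.0% for the Cyp2d cluster and 55.6% for the Cyp2c genes.

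**Figure D4:**
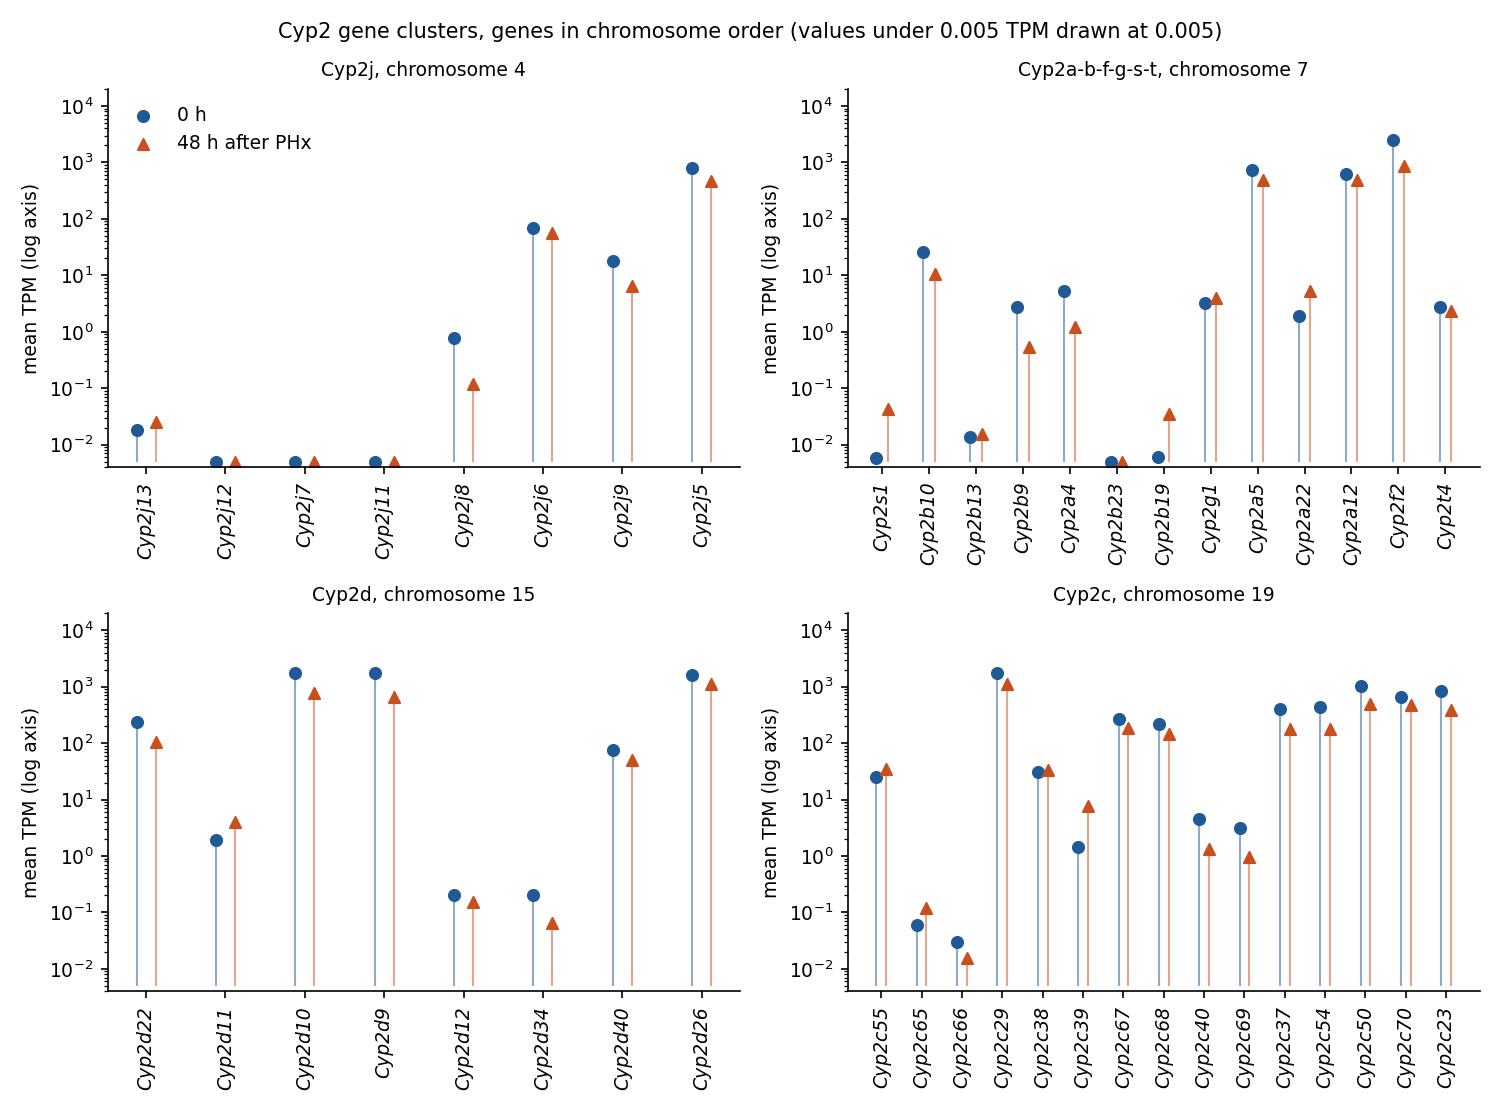
Mean TPM (log axis) of each Cyp2 gene at 0 h (circles) and at 48 h after PHx (triangles), in the order of the genes along the chromosome in each of 4 clusters. Abundant genes such as Cyp2f2 (2522 TPM at 0 h) stand in the same cluster as genes drawn at the floor, such as Cyp2b23.

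Promoter sequences were matched in RefSeq (GRCm38.p6) for 41 of the 49 genes, and 12 strings that liver transcription factors and the basal machinery are known to bind were searched on both strands of the 250 upstream bases. The full HNF4A string CAAAGTCCA was present in 6 of 41 Cyp2 promoters (14.6%) and in 0.384% of 32851 promoters of all genes. Besides the 4 neighbours shown above, it occurs in Cyp2c65 and Cyp2c70. Its first part, CAAAGT, occurred in 19 (46.3%, against 12.6% of all promoters). The string TATAAA was found in 18 Cyp2 promoters (43.9%, against 12.4%), among them those of Cyp2e1, Cyp2c29, Cyp2d9 and Cyp2j5. The gapped C/EBP-like string TTGNNNAA was found in 26 (63.4%, against 33.3%), and the palindrome TTGCGCAA in 0 (0.164% of all promoters). The nuclear receptor core site AGGTCA was found in 9 (22.0%, against 14% of all promoters), and its direct repeat with a spacer of 1 base (DR1) in 0 (0.0335% of all promoters). The forkhead string TGTTTAC was found in 4 (9.76%, against 3.17%), and GTTAAT, part of the HNF1 site, in 6 (14.6%, against 6.43%). The full palindromic HNF1 site was in 0 (0.00913% of all promoters), CCAAT in 16 (39.0%, against 33.8%), and TTCNNNGAA, which STAT5 binds, in 2 (4.88%, against 7.02%). These 2 are Cyp2j11 and Cyp2j12, which had 0 counts in every library. CAAAGT is part of CAAAGTCCA, AGGTCA of its direct repeat, and GTTAAT of the full HNF1 site, so these counts are not independent, and near copies of a gene share their promoter sequence. The RefSeq starts of Cyp2c29 and Cyp2d9 lie more than 500 bases from the annotated gene start.

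Genes of electron transfer, heme synthesis and heme breakdown, and transcription factors known to act on Cyp2 genes, were read from the same fit. This list holds 34 genes, all of which were tested. Of these, 5 were higher, 8 were lower and 21 were not called at 48 h, with a median log2 fold change of -0.055. Over all genes tested 21.4% were higher and 19.3% lower, so the counts of this list lie near the background. Por (ENSMUSG00000005514.14), the electron donor of the P450 enzymes, had 236, 308 and 339 normalized CPM at 0 h and 666, 837 and 662 at 48 h. All libraries at 48 h were above those at 0 h, opposite to most Cyp2 genes, and Por rose 2.45-fold (log2 fold change 1.29, standard error 0.169, edgeR adjusted p = 0.000185). The summed Cyp2 level per unit of Por level, both in TPM, was 146.8, 124.2 and 112.4 at 0 h and 18.2, 18.6 and 24.3 at 48 h. This ratio of transcripts was 127.8 ± 17.5 at 0 h and 20.3 ± 3.41 at 48 h (SD, n = 3). Of the other electron transfer genes, Pgrmc1 fell by 0.82, Cyb5r3 by 0.71 and Cyb5b by 0.53 on the log2 scale. Cyb5a, the remaining gene, had overlapping libraries and was not called (log2 fold change 0.17, edgeR adjusted p = 0.369). The call of Cyb5b was lost with library size only and when any of 4 of the 6 libraries was left out (edgeR adjusted p from 0.0529 to 0.148). Antisense genes cover 5.65% of the exon sequence of Cyb5r3.

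Heme synthesis was represented by 8 genes, of which Alas1, the rate-limiting enzyme, and Alad were higher (log2 fold change 0.64 and 0.74) and Uros was lower (-0.63), where 21.4% of all genes were higher and 19.3% lower. Antisense genes cover 7.53% of the exon sequence of Alas1. Hmox1, which breaks heme down, had 5.48, 6.38 and 7.86 normalized CPM at 0 h and 14.5, 15.2 and 15.3 at 48 h. The 48 h libraries were close together and all above 0 h, and the gene rose 2.28-fold (log2 fold change 1.19, standard error 0.151, edgeR adjusted p = 0.000155). Hmox2, Blvra and Blvrb, the other heme breakdown genes of the list, were not called (edgeR adjusted p = 0.813, 0.094 and 0.747).

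Among the 17 transcription factors, 4 were lower and 1 was higher, where 19.3% and 21.4% of all genes were. Nr0b2, a repressor induced by bile acids, had 52.1, 55.0 and 51.6 normalized CPM at 0 h and 11.0, 11.7 and 18.7 at 48 h. It fell 3.84-fold without overlap (log2 fold change -1.94, standard error 0.182, edgeR adjusted p = 2.07e-05). Stat5b, which carries the growth hormone signal behind sex-biased P450 expression, had 101, 84.7 and 104 normalized CPM at 0 h and 45.8, 49.5 and 47.9 at 48 h. Its groups were tight and separate (log2 fold change -1.02, standard error 0.111, edgeR adjusted p = 5.88e-05). Cebpa had 659.7, 393 and 537 normalized CPM at 0 h and 204, 290.2 and 316 at 48 h, and it fell 1.96-fold (log2 fold change -0.97, standard error 0.213, edgeR adjusted p = 0.00449). Onecut1 had 214, 107 and 123 normalized CPM at 0 h and 35.2, 56.6 and 97.4 at 48 h. It passed the test (log2 fold change -1.23, standard error 0.345, edgeR adjusted p = 0.016), but not without replicate 1 at 0 h (edgeR adjusted p = 0.0697) or replicate 2 at 48 h (edgeR adjusted p = 0.0512), and another gene in the same orientation covers 52.8% of its exons. Foxa3 was higher (log2 fold change 0.91). The xenobiotic receptors Nr1i2 (PXR) and Nr1i3 (CAR), and Hnf4a, were not called, with log2 fold changes of 0.12, -0.16 and 0.23 (edgeR adjusted p = 0.459, 0.605 and 0.2). Antisense genes cover 74.9% of the exon sequence of Nr1i3.

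**Figure D5:**
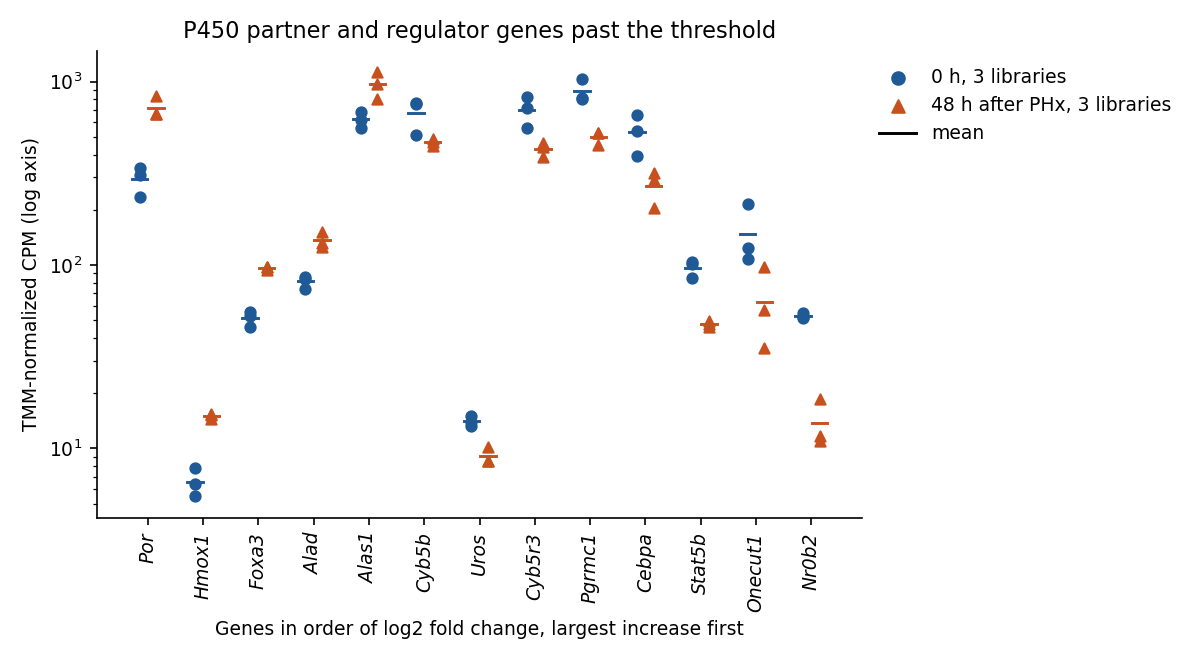
Normalized CPM (log axis) of the 13 partner and regulator genes that passed the test, in each of the 3 libraries at 0 h (circles) and at 48 h after PHx (triangles), with group means as bars. Por, Hmox1, Foxa3, Alad and Alas1 are higher at 48 h, and the other 8, ending with Nr0b2, are lower.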

How the data were processed

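Bulk RNA-Seq of hepatocytes was analysed in 3 libraries at 0 h and 3 at 48 h, grouped by the sample labels. The authors deposited raw counts of reads per gene, without normalization. The submitters' processing notes name FastQC 0.11.5, Trim Galore 0.6.4, STAR 2.6, HTSeq 0.12.4, DESeq2 and the build mm10, and the strand setting is not given in the sources used here. All 55450 gene IDs matched GENCODE M21 (GRCm38), which gave names, coordinates and exon lengths. Reads on no gene (24.3% to 32.7%) and ambiguous reads (4.27% to 5.29%) were left out, and multiply aligned reads are listed at 0, so near-identical genes may be undercounted.

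Time points were compared with edgeR 4.0.16 in R 4.3.3 (TMM factors 0.914 to 0.950 at 0 h and 1.02 to 1.11 at 48 h, quasi-likelihood test, two-sided, Benjamini-Hochberg adjustment over 17037 genes). The standard error is the log2 fold change divided by the square root of the F statistic. TPM divides counts by exon length. The steps were tested on simulated data. The labels do not state that libraries came from separate mice, but the study describes them as biological replicates from separate hepatocyte preparations. No pair of libraries agreed within counting noise (mean chi-square per gene of at least 25.8), so none was treated as a repeat of another, which does not tell biological from technical replicates.

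Values were given per library for the 10 members highest in mean TPM, for up to 8 increases and 8 decreases (adjusted p under 0.05, mean of at least 1 CPM), for members of the Cyp2 lists and for the 6 partner genes with the largest changes. Cyp2c38, Cyp2c67, Cyp2c68, Cyp2c70, Cyp2a12, Cyp2d22, Cyp2d40, Cyp2j6, Cyp2j8, Cyp2t4, Nr1i2, Nr1i3 and Hnf4a were added after their values were seen. The members and lists were chosen with earlier results of these data known. Alternatives were RLE factors, library size only, TMM factors from protein-coding genes, DESeq2 1.42.0, limma-voom (limma 3.58.1), no count filter, a filter of 1 CPM in 3 libraries, the replicate number as a block, a log2 fold change of at least 1, leaving out each library, other scalings of the sum, and near-identical genes summed. With all libraries or with 1 left out, this gave 15 fits.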

Additional observations from a re-analysis of the deposited data

How the results depend on the processing

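Of the 34 tested Cyp2 genes, 20 of the 22 lower and 1 of the 3 higher were called in every one of the 15 fits. The lower and higher Cyp2 counts were 20 and 4 with library size only, 22 and 3 with DESeq2, RLE factors, protein-coding TMM factors and the 1 CPM filter, 23 and 2 with limma-voom, 27 and 3 without a count filter (45 genes tested, with Cyp2a4, Cyp2a5, Cyp2b9 and Cyp2c67 added among the 34, and Cyp2j8 among the 15 below the filter), and 15 and 2 with a log2 fold change of at least 1. Without a count filter, edgeR adjusted p fell for most of the 34, also for genes already called, with nearly unchanged log2 fold changes. For Cyp2d9 it went from 5.86e-06 to 1.15e-14 and for Cyp2b10 from 0.00648 to 4.89e-09. It rose for Cyp2d11, Cyp2t4 and Cyp2r1. Leaving out 1 library gave 22 to 24 lower and 1 to 3 higher. Library size only shifted the median log2 fold change of all genes by 0.20 and gave 5308 higher and 2110 lower genes (3638 and 3288 with TMM) and 10 higher partner genes in place of 5. When the log2 fold change had to be at least 1 in size, 1651 genes were higher and 1353 lower, among the partner genes 2 and 3. Leaving out 1 library gave 2874 to 3451 higher and 2638 to 3223 lower genes, and 5 to 7 higher and 6 to 9 lower partner genes.

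The summed Cyp2 level at 0 h was 20811 CPM with TMM factors, 13279 CPM without Cyp2e1 and 23917 TPM, and 18931 to 20039 CPM with 1 library left out. At 48 h it was 8283 CPM with TMM factors, 6761 CPM without Cyp2e1 and 11309 TPM, and 8355 to 9904 CPM with 1 library left out. With the replicate number as a block, 26 Cyp2 genes were lower and 3 higher (all genes 2884 and 3237), and Cyp2a4, Cyp2a5, Cyp2b9 and Cyp2c67 were again added (edgeR adjusted p = 0.0412, 0.0189, 0.0108 and 0.0234). The deviations of same-numbered libraries had correlations of 0.0335, -0.0674 and -0.138, only 1 of the 3 libraries at 0 h correlated best with its own number, and the numbers were not treated as pairs.

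The signs that reversed belong to genes that were not called. Cyp2g1 had log2 fold changes of -0.0045 with RLE factors, -0.044 with protein-coding TMM factors, -0.0043 with DESeq2, -0.014 with limma-voom, -0.013 without a filter, -0.0084 with the 1 CPM filter, -0.011 with the replicate block, and -0.29 to 0.25 with 1 library left out. Cyp2c38 had 0.070 with library size only and -0.37 to 0.30 with 1 library left out. Cyp2c55 ranged from -0.16 to 0.45 with 1 library left out, and Cyp2a4 from -3.39 to 0.75. The cause was not tested. DESeq2 gave no adjusted p for 1 Cyp2 gene. At this depth, 0 counts in a library allow a level of up to 0.0825 to 0.0955 CPM (3 counts).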

Other observations

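The annotation also holds 21 Cyp2 pseudogenes, which the rule for members left out, and 8 of them had 0 counts in all 6 libraries. The most counted were Cyp2d37-ps, with 4191, 5193 and 3536 counts at 0 h and 1638, 1897 and 1731 at 48 h, and Cyp2d38-ps, with 4339, 4737 and 3709 counts at 0 h and 1576, 1929 and 1578 at 48 h. Every library at 48 h had fewer counts than every library at 0 h for both. Both are annotated as transcribed unprocessed pseudogenes. Cyp2d32-ps had the opposite order, with 19, 16 and 8 counts at 0 h and 44, 65 and 38 at 48 h. These are raw counts, no test is given for them, and the 3 genes were chosen after their values were seen.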
